A study of Mus musculus with 2 samples.

Results

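The 2 mature arms of the cartilage microRNA miR-140, listed as mmu-miR-140-5p and mmu-miR-140-3p, were followed in knee joint cartilage of mice. They were taken by name from the array files, as 2 of the 1247 mouse miRNAs with probes, and all 4 of their probes and 80 spots on each array were used. The study compared a control sample, whose genotype is labelled wildtype, with a sample labelled Col2a1Tsc1KO, genotype Col2a1; Tsc1 KO, which the series text describes as a Col2a1-specific deletion of Tsc1. Both samples came from male mice aged 8 weeks, and cartilage of the knee was peeled off for total RNA. The sources used here do not give the number of mice behind each sample or the means of the deletion, such as a Cre line and its promoter. Each group had 1 array of 1 colour, so no difference below has a replicate check and no p-value was computed. Errors are standard errors (SE) over the spots of a probe on each array and measure technical noise only.

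miR-140 is made in cartilage cells from a hairpin that lies within the gene of the ubiquitin ligase WWP2, and its transcription there is driven by SOX9, the master regulator of cartilage cells. The hairpin gives 2 abundant strands that recognise different targets, since a miRNA finds its target mRNAs mainly through its seed near the 5′ end. Mice that lack miR-140 are short and develop osteoarthritis-like changes, and the aggrecan-cleaving protease ADAMTS5 is a known target of miR-140-5p. Tsc1 encodes a subunit of the complex that restrains the growth kinase complex mTORC1.

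The sequences are shown because they set what each probe can read. In the hairpin, capitals mark the bases that the array probes pair with, for miR-140-5p on the left and for miR-140-3p on the right. In the mature strand, taken from the RefSeq table that holds 1 of the 2 arms, capitals mark the seed, bases 2 to 8. In the longer probe of each pair, the capital is the base that the shorter probe lacks.
Mir140 hairpin: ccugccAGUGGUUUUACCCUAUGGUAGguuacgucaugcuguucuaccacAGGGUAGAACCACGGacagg
miR-140-3p: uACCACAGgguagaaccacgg
miR-140-5p shorter probe: ctaccatagggtaaaaccac
miR-140-5p longer probe: ctaccatagggtaaaaccacT
miR-140-3p shorter probe: ccgtggttctaccc
miR-140-3p longer probe: ccgtggttctacccT

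The hairpin of 70 bases lies on the plus strand of chromosome 8, from 107551244 to 107551313 in GRCm38.p6, and within the span of Wwp2, 7977 bases before that gene's end. The miR-140-5p probes, of 20 and 21 bases, are listed at 107551251 to 107551270 and at 107551250 to 107551270. Those of miR-140-3p, of 14 and 15 bases, are listed at 107551295 to 107551308 and at 107551294 to 107551308. These positions were the same as those found by matching each probe to the RefSeq hairpin. The miR-140-3p probes pair with bases 8 to 21 and 7 to 21 of the mature strand, so most of its seed lies outside the paired stretch. Strands of miR-140-3p that differ only at the 5′ end therefore cannot be told apart here. No probe of another miRNA shared a run of more than 8 bases with any of the 4 probes. In the RefSeq table the seed of miR-140-3p occurs in 1 other mature mouse miRNA, miR-497b, for which the array had no probe under that name.

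Both arms stood higher on the Col2a1Tsc1KO array than on the control array, and miR-140-5p showed the larger difference. After scaling, miR-140-5p differed by 1.38 ± 0.01 (SE over spots) on the log2 scale, or 2.59-fold, and miR-140-3p by 1.01 ± 0.01, or 2.01-fold. Differences are Col2a1Tsc1KO minus control, and each array was scaled by the 75th percentile of those 476 probes that were well above background on both. That scaling lowers every difference by 0.41. As the scanner software wrote the signals, the differences were 1.79 and 1.42, or 3.45-fold and 2.67-fold. In a bulk sample, more cells that make a miRNA and more of it per cell cannot be told apart.

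For miR-140-5p, the intensities below are background-subtracted and unscaled, without spots that the software marked as outliers. On the control array the probe of 20 bases had 18 usable spots, from 754 to 853 with a median of 786. On the Col2a1Tsc1KO array the same probe had 20 usable spots, from 2550 to 2860 with a median of 2700. The arrays are thus far apart relative to the scatter of spots. The probe of 21 bases ran from 971 to 1080 on the control array, with a median of 1050 over 20 spots. On the Col2a1Tsc1KO array it ran from 3530 to 3710, with a median of 3580 over 16 spots. With every spot included, marked or not, no spot of either probe overlapped between the arrays. The lowest on the Col2a1Tsc1KO array was 2.92 and 3.02 times the highest on the control array for the shorter and longer probe. How many probes of other miRNAs separate in this way is not given here, so the separation is not shown to be particular to miR-140. After scaling, the probes differed between the arrays by 1.36 and 1.39.

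For miR-140-3p, the probe of 14 bases ran from 587 to 668 on the control array, with a median of 618 over 16 usable spots. On the Col2a1Tsc1KO array it ran from 1590 to 1770, with a median of 1660 over 16 spots. The probe of 15 bases ran from 1670 to 1790 on the control array, median 1750 over 17 spots, and from 4010 to 5010 on the Col2a1Tsc1KO array, median 4690 over 20 spots. As with the 5p arm, no spot overlapped between the arrays with every spot included, and again the share of other probes that separate is not given. The margin was smaller, since the lowest spot on the Col2a1Tsc1KO array was 1.77 and 2.18 times the highest on the control array. After scaling, the probes differed by 1.02 and 0.99, which straddles a 2-fold difference.

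All 80 miR-140 spots on each array were marked as well above background, none was saturated, and 9 on the control and 8 on the Col2a1Tsc1KO array were marked as outliers. Negative-control spots had a 99th percentile of 16.4 and 14.8 on the same arrays, so every miR-140 spot was far brighter than background. Both arrays share a layout, and spots at the same place can be paired. Over those pairs, the unscaled difference ran from 1.64 to 1.89 for miR-140-5p, over both probes. For miR-140-3p it ran from 1.14 to 1.56. The ranges of the arms do not overlap. Intensities of different probes are not read here as relative amounts of their miRNAs, because a probe's brightness also depends on its own sequence. Below, intensity describes the strength of the signal behind a difference, or is summed over a marker list to set 1 array beside the other.

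**Figure D1:**
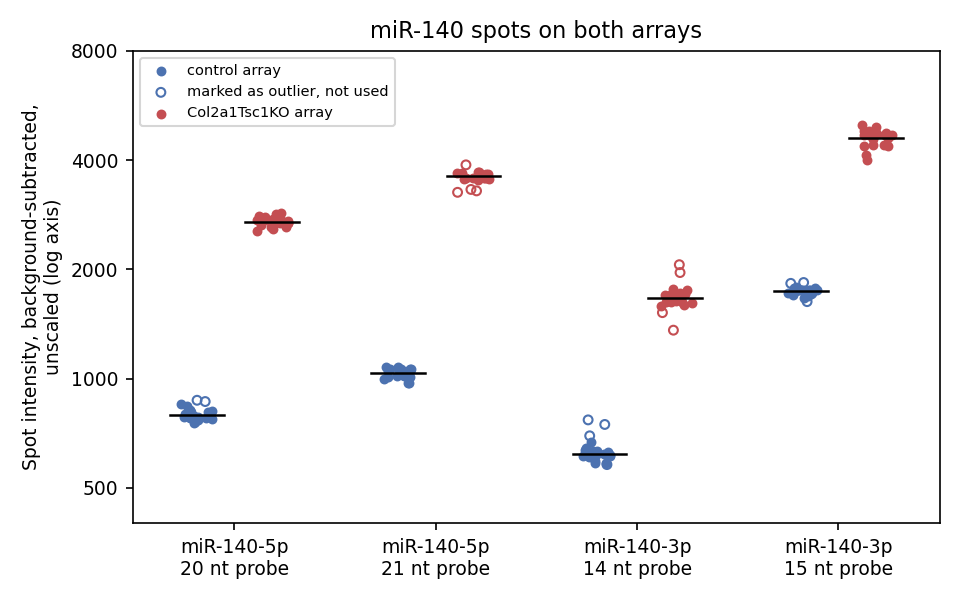
Background-subtracted, unscaled intensity of every miR-140 spot (log axis) by probe on the control and Col2a1Tsc1KO arrays, where black lines are geometric means of the spots used and open circles are spots marked as outliers. For each probe shown the Col2a1Tsc1KO spots lie above all control spots, by the widest margin for the miR-140-5p probes. How many probes of other miRNAs separate in this way is not given.

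The arms did not differ by the same amount. The log2 difference of miR-140-5p exceeded that of miR-140-3p by 0.37 ± 0.02 (SE over spots), or 1.29-fold. This gap does not depend on a scaling constant, because a constant shifts both arms alike. Within an arm the probes differed by 0.030 for miR-140-5p and 0.027 for miR-140-3p. Across the 172 miRNAs with 2 measured probes, the median gap between probes was 0.071, and 1 of them had a gap wider than that between the arms of miR-140. A gap between arms of this size was common among hairpins, however. Of the 18 other hairpins with both arms well above background on both arrays, 10 had a wider absolute gap and 8 a narrower one, with a median of 0.40. In 14 of the 18 the difference of the 5p arm was also the higher. Each of these 18 hairpins, with a wider or a narrower gap, had an arm with a weaker signal than either arm of miR-140.

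The hairpins nearest in kind differed in this respect. The arms of miR-199a, a mesenchymal miRNA, stood at 1.50 (5p) and 1.46 (3p), a gap of 0.04. The arms of miR-455, the other cartilage hairpin, stood at -0.03 and 1.71, a gap of -1.73. That value rests on weak signals on the control array, where the intensity was 41.6 for miR-455-5p and 27.8 for miR-455-3p. The SE over spots was 0.14 for miR-455-5p and 0.05 for miR-455-3p. The widest gap was that of miR-195a at 2.43, where miR-195a-3p was also weak, at 47.8 (control) and 23.2 (Col2a1Tsc1KO) on 1 probe.

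**Figure D2:**
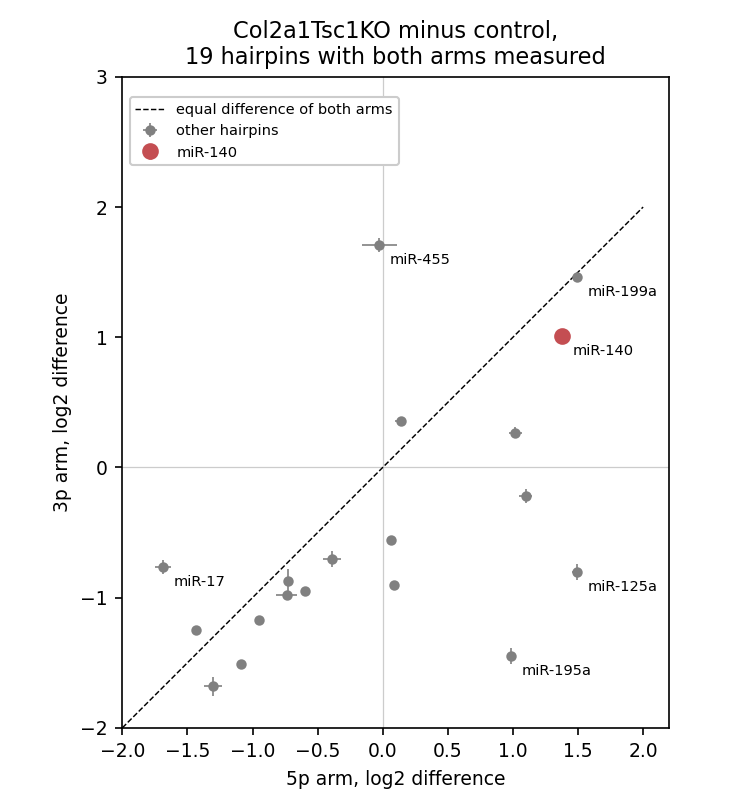
Log2 difference (Col2a1Tsc1KO minus control, scaled) of the 3p arm against that of the 5p arm for the 19 hairpins with both arms measured, with SE over spots as bars. miR-140 lies at 1.38 and 1.01, a little below the dashed line of equal differences.

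Both arms belonged to the miRNAs with the larger positive differences. Of 257 miRNAs well above background on both arrays, miR-140-5p ranked 20 and miR-140-3p ranked 39 from the top. The ranks depend on the processing. They were 6 and 21 with no background subtraction, 27 and 45 after normexp with quantile normalization, and 43 and 59 after quantile normalization alone. In the authors' deposited table they were 40 and 71 of 304, and with no filter on dim probes 62 and 116 of 1136. At least 2-fold higher on the Col2a1Tsc1KO array were 40 of the 257, which is 15.6%, and both arms were among them. Since miR-140-3p stood at 1.006 against a threshold of 1, its place in that count is marginal. The count at least 2-fold lower was 45, and the split depends on scaling. Higher and lower counts were 59 and 13 both without scaling and when the 75th percentile was taken over every probe, 55 and 14 with scaling to spike-ins, 40 and 26 after a lowess fit on the mean level, and 16 and 9 after normexp with quantile normalization. The median over all 257 was -0.22, and miR-140-5p lay 1.59 and miR-140-3p 1.22 above it.

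The difference also varied with the strength of the signal. Among the 65 miRNAs with the highest mean intensity over both arrays, which include both arms, the median difference was 0.35, against -0.27 for the rest. Of these 65, 17 were at least 2-fold higher, or 26.2%. Within them, 5 stood above miR-140-5p and 16 above miR-140-3p. When this dependence on level was removed by the lowess fit, chosen after the data were seen, miR-140-5p stood at 1.01 and miR-140-3p at 0.66, at ranks 40 and 57.

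**Figure D3:**
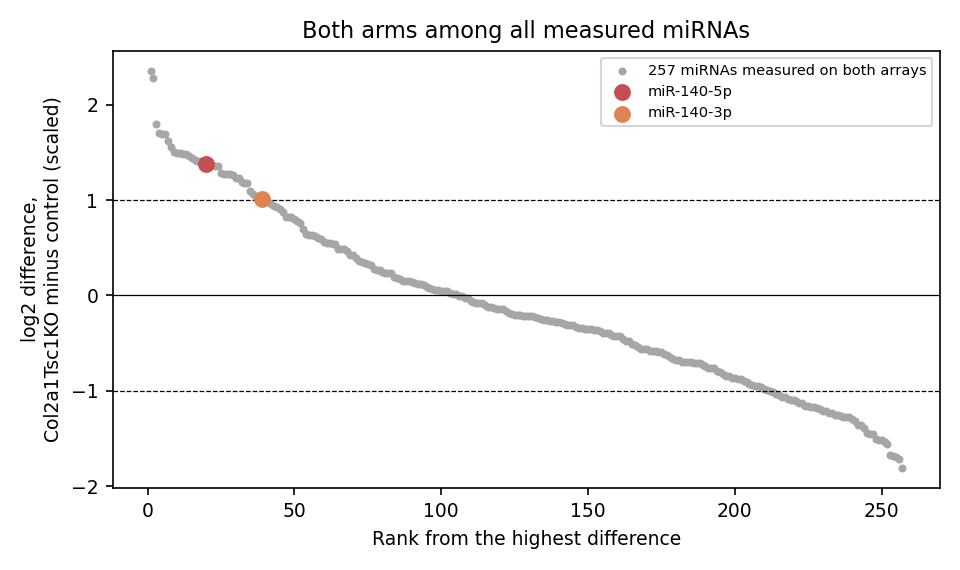
Log2 difference (Col2a1Tsc1KO minus control, scaled) of the 257 miRNAs measured on both arrays against their rank, with dashed lines at a 2-fold difference. miR-140-5p lies at rank 20 and miR-140-3p at rank 39, just above the upper line.

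The miRNAs most like each arm were those with the nearest log2 difference, a likeness that rests on 2 arrays alone. Nearest to miR-140-5p were miR-99b-5p at 1.38, miR-143-3p at 1.37, miR-199b-5p at 1.39, miR-100-5p at 1.36 and let-7c-5p at 1.36. Nearest to miR-140-3p were miR-101a-3p, 0.006 below it, and miR-1839-5p at 1.02, miR-195a-5p at 0.98, let-7a-5p at 1.03 and miR-151-5p at 0.96. Of these 10, let-7c-5p and let-7a-5p, both of the let-7 family that marks differentiated cells, had unscaled intensities of 2203 and 2103 on the control array and of 7506 and 5707 on the Col2a1Tsc1KO array.

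Among the 9 miRNAs listed for cartilage cells, 6 could be measured in both samples, and 4 of the 6 passed 2-fold upward, against 15.6% of all miRNAs. Those 4 include both arms of miR-140, and the list was chosen with earlier results of these data known. The comparison with all miRNAs is therefore not a test. The median of the 6 was 1.19, against -0.22 over all, and it ran from 0.75 to 1.62 under the scaling alternatives. Without miR-140 the list had 4 measured members, 2 of them at least 2-fold higher. miR-455-3p, which is made within the collagen gene Col27a1, stood at 1.71 ± 0.05, and miR-193b-3p, which shares a locus with miR-365, at 1.69 ± 0.03. Their signals on the control array were weak, at 27.8 and 32.8. At their lowest under the scaling alternatives they stood at 0.85 and 0.92, under a 2-fold difference. miR-365-3p stood at 0.94 ± 0.03, close to miR-140-3p. miR-455-5p stood at -0.03 ± 0.14, a value that turns positive under each of the 7 scaling alternatives. There it ran from 0.08 to 0.41 and stayed below miR-140-3p in all 7. The remaining members, miR-1247-5p and both arms of miR-675, did not stand well above background in either sample.

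Markers of other cells differed between the arrays as well. Of 18 such miRNAs, 16 could be measured in both samples, 9 with a positive and 7 with a negative difference, and miR-144-3p at 1.51 and miR-143-3p at 1.37 were the 2 that exceeded miR-140-3p. Of the muscle miRNAs, miR-133b-3p stood at -0.996, miR-133a-3p at -0.99, miR-1a-3p at -0.94 and miR-206-3p at 0.05. Summed over the 4 muscle miRNAs, unscaled intensities came to 1223 (control) and 850 (Col2a1Tsc1KO). Apart from miR-206-3p, the muscle markers thus differed in the direction opposite to miR-140.

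Of the 5 leukocyte miRNAs, 3 were negative and 2 positive, from miR-223-3p of myeloid cells at -1.17 to miR-150-5p of lymphocytes at 0.64. Their summed intensities were 8387 (control) and 5182 (Col2a1Tsc1KO). These sums and the intensities below are unscaled, while the differences are scaled. Of the red cell list, miR-451a stood at 0.55 and miR-144-3p at 1.51, and the summed unscaled intensity was 2030 and 4003. The arms of miR-126, found in vessel lining cells, stood at 0.14 (5p) and 0.35 (3p), with sums of 1349 and 2279. Leukocyte markers therefore differed in both directions, while the measured red cell and vessel markers were all positive under the main scaling. All the lists had members well above background in both samples. With quantile normalization, alone or after normexp, miR-451a turns negative, though only to -0.02 at its lowest. miR-126-3p turns negative under both of these and after the lowess fit, to -0.13 at its lowest.

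Of the fibroblast and smooth muscle markers, miR-143-3p had intensities of 54.1 and 186, and miR-145a-5p was well above background on the Col2a1Tsc1KO array alone. The osteoblast miR-2861 stood at 0.11 and miR-3960 at -0.76, with sums of 1335 and 1158. For comparison, intensities of the 4 measured cartilage miRNAs other than miR-140 summed to 163 (control) and 469 (Col2a1Tsc1KO). With the 2 arms of miR-140, which make up most of the sum, it was 2107 and 6368. A different share of cartilage cells, muscle, blood or connective tissue in the peeled tissue is not measured here, and the part of these cells in the miR-140 difference was not tested.

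**Figure D4:**
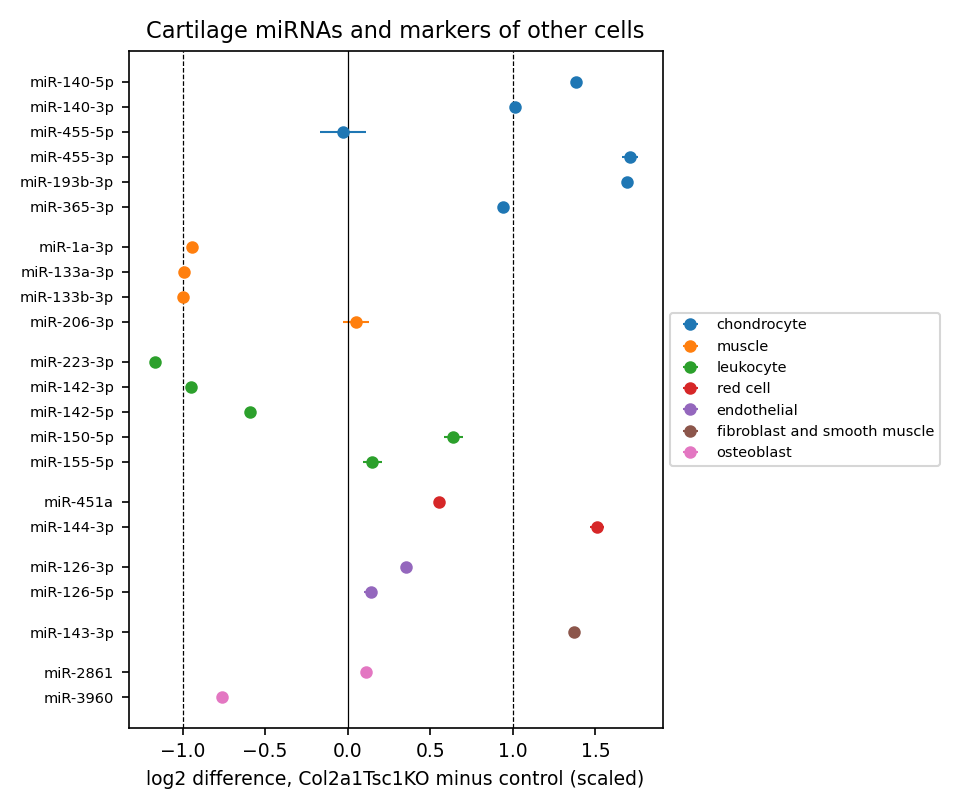
Log2 difference (Col2a1Tsc1KO minus control, scaled) of the measured cartilage miRNAs and of markers of other cells, with SE over spots as bars and dashed lines at a 2-fold difference. Both miR-140 arms lie at or above 1, while the muscle miRNAs other than miR-206-3p lie near -1.

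The authors' deposited log2 values gave the same direction for both arms. In the authors' deposited table miR-140-5p was 9.66 for control and 10.81 for Col2a1Tsc1KO, a difference of 1.15. The table's values for miR-140-3p were 10.14 and 10.78, a difference of 0.64. Quantile normalization of the software's log2 total signals, with undetected miRNAs set to 0.1, gave back these values, with a deviation of the differences of at most 1.7e-06. The same steps gave back, within 0.01, 168 of the 314 entries of that table detected on both arrays. How the other values were made stays unknown. The totals themselves, before that normalization, were 715 and 2496 for miR-140-5p and 922 and 2477 for miR-140-3p, on the control and the Col2a1Tsc1KO array. The difference of miR-140-3p is thus under 2-fold in the deposited table and above it in the totals it was made from.

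The size of the miR-140 difference depended on how the arrays were brought to 1 scale, and its direction did not. Over 20 alternatives, miR-140-5p ran from 0.87 to 1.81 and was at least 1 in 18, while miR-140-3p ran from 0.57 to 1.44 and was at least 1 in 14. The lowest values came after normexp with quantile normalization, a step that forces both arrays to 1 distribution. With scaling to 4 spike-in RNAs, which differed by a mean of 0.05 between the unscaled arrays, the arms stood at 1.74 and 1.37. The gap between the arms stayed positive under all 20, from 0.30 to 0.52. Several of the 20 change only a scaling constant or the use of other probes, so they could not move this gap.

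**Figure D5:**
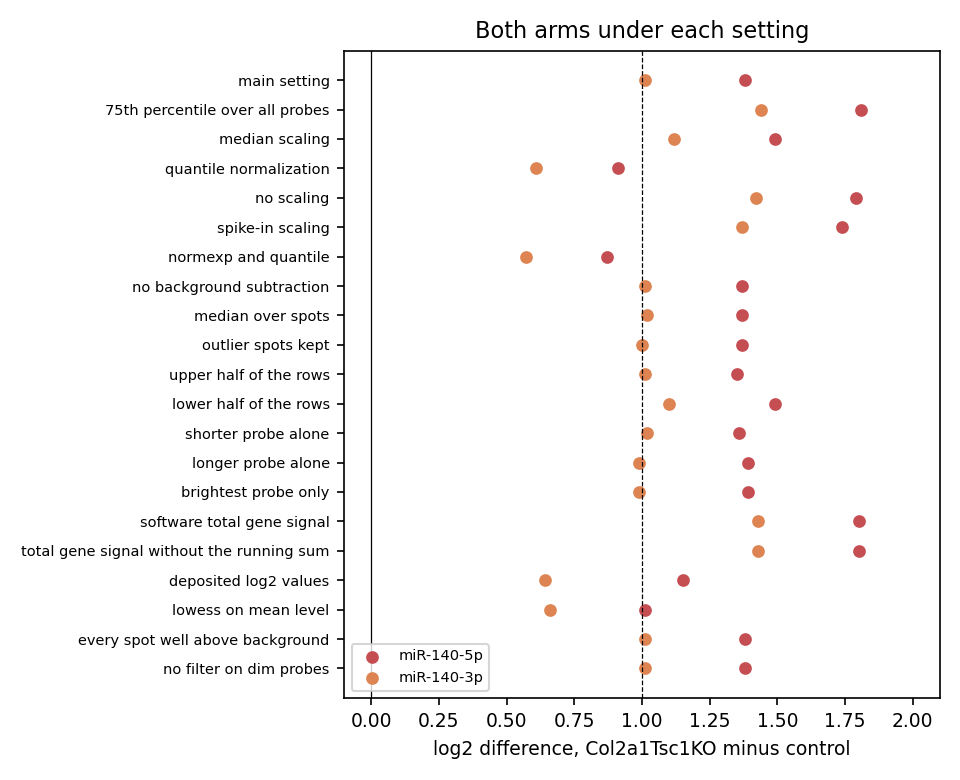
Log2 difference (Col2a1Tsc1KO minus control) of both arms under the main setting and each of 20 alternatives, with a dashed line at a 2-fold difference. miR-140-5p lies to the right of miR-140-3p under every setting, and both are above 0.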

How the data were processed

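miRNA levels were read on 2 arrays of 1 colour, 1 per group. Per the submitters' processing notes and file headers, Agilent Feature Extraction 10.7 made the deposited intensity values, background-subtracted with spatial detrending and not scaled between arrays. The authors' deposited log2 table has column medians of -3.26 (control) and -3.32 (Col2a1Tsc1KO), which are its floors. Rebuilding it gave the values of the 2 arms on a log2 scale after quantile normalization, with no further centring and in the labelled direction. Of its 314 entries detected on both arrays, only 168 came back within 0.01. For the others these steps stay unknown.

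Outlier spots were dropped, and log2 intensities were averaged over the spots of a probe and then over the probes of a miRNA. A probe counted as well above background when the software marked over 50% of its spots as such. The number of arrays limits the precision. Tools were Python 3.11.15, statsmodels 0.14.6 (lowess, fraction 0.5) and limma 3.58.1 in R 4.3.3 (normexp, offset 50), and the steps were tested on simulated data. Named miRNAs were the 2 arms, those sharing a seed, the cartilage list, cell type markers and the 5 nearest to each arm in difference. Hairpins compared by their arms were added after their values were seen. Of the 1247 miRNAs, 1017 matched a mature sequence in the RefSeq table. The members and lists were chosen with earlier results of these data known.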

Additional observations from a re-analysis of the deposited data

How the results depend on the processing

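Both arms kept a positive difference under all 20 alternatives. The log2 differences of miR-140-5p and miR-140-3p were 1.81 and 1.44 when every probe entered the 75th percentile, 1.49 and 1.12 with median scaling, 0.91 and 0.61 with quantile normalization, 1.79 and 1.42 with no scaling, 1.74 and 1.37 with spike-ins, 0.87 and 0.57 with normexp and quantile normalization, 1.80 and 1.43 with the software's total gene signal, with or without a running sum found in it for other miRNAs, 1.15 and 0.64 in the deposited log2 values, and 1.01 and 0.66 after lowess, which was added after the data were seen. With the lower rows of the array they were 1.49 and 1.10, where the scaling constant was 0.29 in place of 0.41. The gap between the arms was 0.52 in the deposited values. Under the other 19 it moved by less than its standard deviation over spots, 0.10. Several of these shifts exceeded its SE of 0.02, the largest to 0.30 with normexp and quantile normalization. The number of miRNAs past 2-fold in either direction, 85, became 25 with normexp and quantile normalization, 36 with no background subtraction and 400 of 1136 with no filter on dim probes. No paired analysis was possible because each group holds 1 array. With 1 array per group, none of these values shows how much miR-140 varies between mice.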
